A study of Mus musculus with 10 samples.

Results

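Receptors for dopamine, serotonin, noradrenaline, acetylcholine, histamine and adenosine were examined in mouse brain after controlled cortical impact, an injury model that drives a piston into the surface of the brain on one side. The genes were chosen by symbol, as every gene named Drd, Htr, Adra, Adrb, Chrm, Chrna, Chrnb, Hrh or Adora with a receptor number. Earlier results of these data were known when this group was chosen. Of the 30142 genes measured, 44 belonged to this group: 5 dopamine, 14 serotonin, 2 noradrenaline, 5 muscarinic, 13 nicotinic and 4 histamine receptor genes and 1 adenosine receptor gene. A further 10 receptor genes of the same kinds, 7 for noradrenaline and 3 for adenosine, were not analysed here. The noradrenaline and adenosine families are therefore represented by a small part of their members.

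The mice were adults of 8 to 12 weeks, and the labels name both sexes. A 2 mm impact was applied to one hemisphere, and 7 days later tissue was taken at the impact site (ipsilateral, 5 samples) and from the matching region of the other hemisphere (contralateral, 5 samples). All 10 samples came from injured animals, and no sham or uninjured group was analysed here. The values therefore do not show on which side a level changed. A gene that fell or rose was called lower or higher ipsilaterally than contralaterally, at the threshold given below. The labels describe the samples as biological replicates and do not state which ipsilateral and contralateral samples came from the same animal. The p-values measure the spread between these samples treated as independent, and take no account of any animal shared between them.

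These receptors carry the diffuse modulatory systems of the brain, whose fibres reach the cortex from small nuclei in the brainstem, the hypothalamus and the basal forebrain. Most are coupled to G proteins: the Gs class raises cyclic AMP, the Gi class lowers it, and the Gq class activates phospholipase C. The nicotinic receptors and the serotonin receptor built from Htr3a and Htr3b are instead ion channels assembled from several subunits. Adenosine differs from the other transmitters in that it is formed locally from released ATP.

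Each RNA sample was read on its own whole-transcript array, and the deposited values are log2 signals per probe set. The median signal of an array was 4.79 to 4.84 ipsilaterally and 4.71 to 4.77 contralaterally, so every ipsilateral median was the higher, and an offset between arrays cannot be told apart from side. Xist, which is transcribed in females, lay at 4.53 to 4.67 on all 10 arrays and the Y-linked gene Uty at 8.60 to 8.88, so the arrays did not show both sexes. Neuronal transcripts such as Snap25 and Syt1 were abundant on both sides (mean of 5 neuronal genes 14.25 to 14.65 ipsilaterally and 14.5 to 14.73 contralaterally), and of these 5 genes Rbfox3 fell by 0.54 on the log2 scale. The mean of 7 of 8 listed genes of neocortical excitatory neurons was 10.57 to 10.86 ipsilaterally and 11.43 to 11.81 contralaterally, without overlap, and 4 of the 7 (Tbr1, Cux2, Rorb and Lamp5) fell. Pvalb and Vip, of 7 interneuron genes, also fell, with fold changes of -1.84 and -1.12, and the other 5 were not called. The 7 fold changes had a median of -0.19, with 3 positive and 4 negative, the most positive being 1.29 for Ndnf. The 5 measured of 6 oligodendrocyte genes had negative fold changes, with a median of -1.19, and were not called. The 6 measured of 7 microglial genes and the 6 genes of infiltrating myeloid cells had positive fold changes, with medians of 0.61 and 0.70. Of these, Cd163 was called higher (0.47). Of 6 astrocyte genes 4 were positive and 2 negative, and Aqp4 was called higher (0.95). Of the 5 measured of 6 hippocampal genes 4 were positive and 1 negative, and Wfs1 was called higher (1.76). The part of these differences in the receptor results was not tested.

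Some arrays stood apart in genes of particular brain regions or cell types. A list of 10 genes known from olfactory bulb neurons was composed after the values were seen. On ipsilateral replicate 1 these genes averaged 9.55, against 5.79 to 6.02 on the other ipsilateral arrays and 5.51 to 5.78 on the contralateral ones. In that array Cdhr1 reached 12.3 and Eomes 9.10. On ipsilateral replicate 3, 9 of 10 listed striatal genes averaged 8.26, against 7.27 to 7.73 on the other ipsilateral arrays and 7.25 to 7.46 contralaterally. The mean of 6 of 7 listed choroid plexus genes was high in replicates 2 and 4 of both sides (9.88 and 8.04 ipsilaterally, 10.56 and 7.58 contralaterally) and 5.64 to 6.29 on the other 6 arrays. On contralateral replicate 4, 6 thalamic genes averaged 8.0, against 6.93 to 7.24 on the other contralateral arrays and 7.33 to 7.97 ipsilaterally. Its oligodendrocyte genes averaged 10.32, against 11.36 to 11.69 on the other contralateral arrays and 9.75 to 11.04 ipsilaterally. Where leaving out one of these arrays changed a receptor gene's call, the value without it is given.

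The comparison between the impact site and the other hemisphere asked which receptor transcripts differed a week after injury. The muscarinic receptor gene Chrm3, the serotonin receptor gene Htr5a and the nicotinic subunit gene Chrnb3 fell ipsilaterally, and no receptor gene was called higher. Calls were made with limma at a Benjamini-Hochberg adjusted p under 0.05 over all 30142 genes. The 3 genes that fell were 6.82% of the 44, and 4.33% of all genes fell, while 1.22% of all genes rose. At an unadjusted p under 0.05 there were 5 higher and 9 lower receptor genes. The fold changes of the 44 genes, always given as ipsilateral minus contralateral on the log2 scale, had a median of 0.01 (0.02 over all genes), with 25 positive and 19 negative. The groups of 5 and 5 arrays did not overlap for 3 receptor genes, the same 3 that fell, and for 7.25% of all genes.

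**Figure D1:**
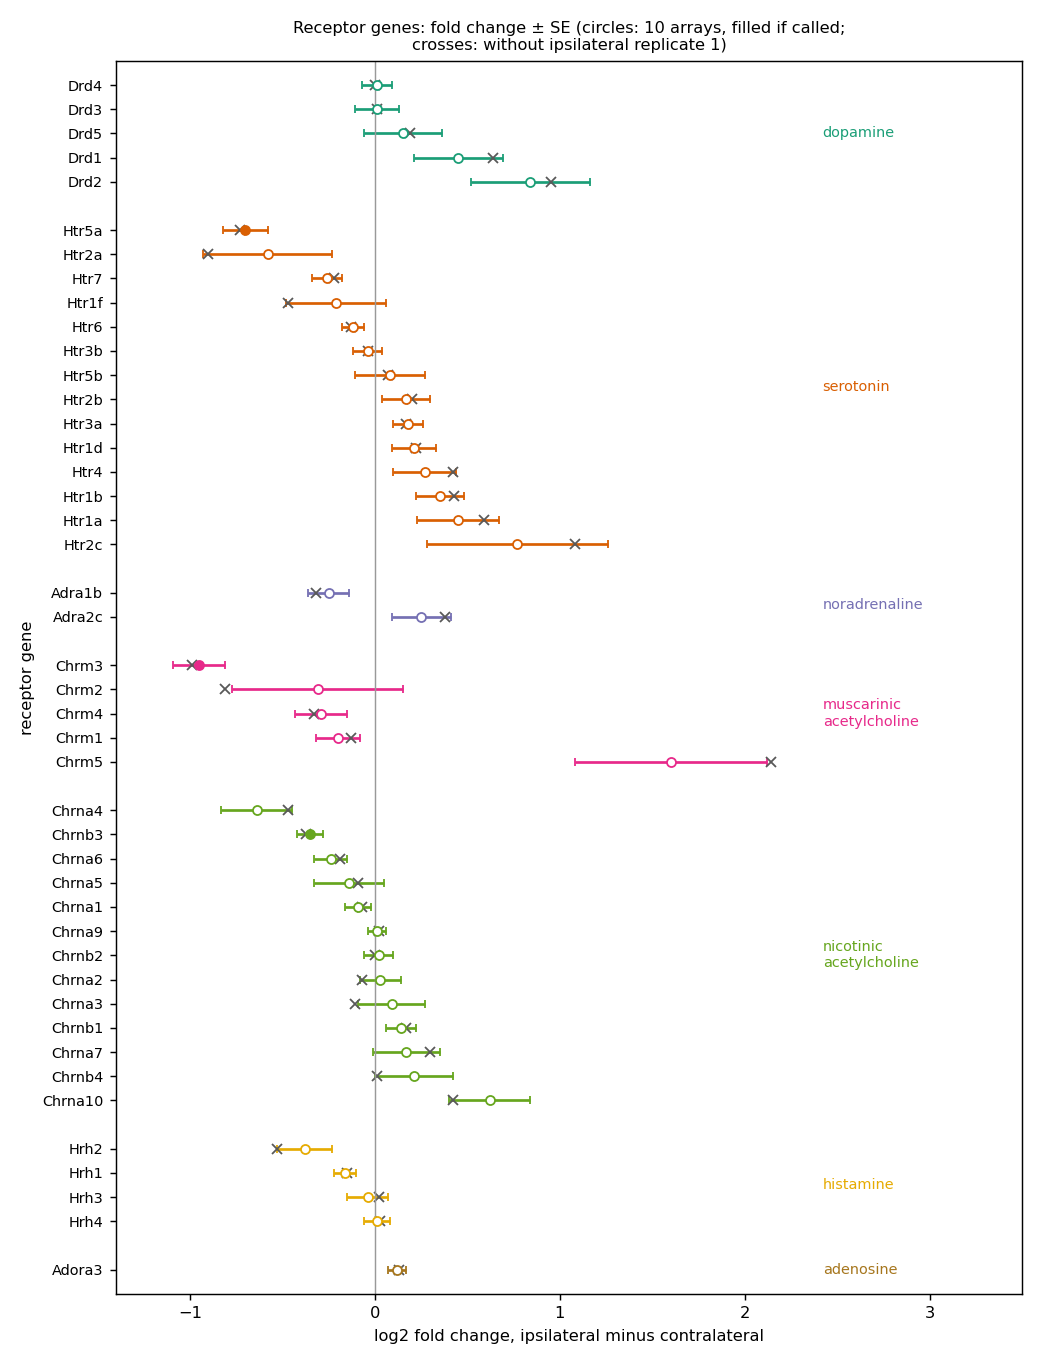
Fold change of each of the 44 receptor genes (x axis, log2, ipsilateral minus contralateral) grouped by transmitter. Circles with bars are the fold change ± SE over 10 arrays, filled for the 3 genes called, and crosses are the fold change without ipsilateral replicate 1; Chrm5 lies farthest to the right at 1.60 and moves to 2.14.

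In whole tissue, the share of cells that express a receptor, its RNA per cell and the regions in a tissue piece cannot be told apart. This holds for every receptor described here, in either direction. Leaving out ipsilateral replicate 1 gave 6 lower receptor genes (13.6% of 44, against 5.33% of all genes) and 1 higher (2.27%, against 2.52% of all genes). The 3 genes named above were again among the lower ones, joined by Chrm2, Htr2a and Hrh2, and the higher one was Chrm5. Centring each array on its median gave 7 lower (15.9%, against 8.7% of all genes) and 0 higher receptor genes (0.77% of all genes rose), where the added genes were Chrna4, Htr7, Hrh1 and Htr6. With that centring, 8.1% of all calls were higher ones, against 22.0% without it.

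Among the muscarinic receptors, which bind acetylcholine and act through G proteins, Chrm3 fell, Chrm5 had the most positive fold change of all 44 receptor genes, and the fold changes of Chrm1, Chrm2 and Chrm4 were negative and not called. The median over the 5 genes was -0.29. Chrm3 encodes a Gq-coupled receptor best known from glands and smooth muscle and also made by cortical neurons. Its signal was 9.65, 9.35, 9.35, 9.37 and 9.72 on ipsilateral replicates 1 to 5, and 10.73, 10.44, 10.59, 9.95 and 10.46 on contralateral replicates 1 to 5. Every ipsilateral value was below every contralateral one, and the lowest contralateral value was that of replicate 4. The mean was 9.49 ± 0.18 against 10.43 ± 0.29 (SD, n = 5 per side), a fold change of -0.95 ± 0.14 (SE), or 1.93-fold lower, with a limma adjusted p of 0.00396. Chrm3 was called in each of the 10 fits that left out 1 array, with adjusted p between 0.00064 and 0.0157.

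Chrm5, a Gq-coupled receptor known from dopamine neurons of the midbrain, was at 4.10, 7.36, 6.67, 6.24 and 6.95 ipsilaterally and at 4.54, 4.50, 4.64, 5.35 and 4.29 contralaterally. Ipsilateral replicate 1 lay below all contralateral arrays, and the other 4 ipsilateral arrays lay above all of them. Over all 10 arrays the fold change was 1.60 ± 0.52, with a limma adjusted p of 0.106, which was not called. Without ipsilateral replicate 1 it was 2.14 ± 0.25, with a limma adjusted p of 0.00168, and without ipsilateral replicates 1 and 3 it was 2.19, with an adjusted p of 0.00422. The mean of 5 of 6 listed hippocampal genes was 7.28 on ipsilateral replicate 1, 7.80 to 9.06 on the other ipsilateral arrays and 7.25 to 7.88 contralaterally, and its part in the Chrm5 values was not tested. Aven, the protein-coding gene that overlaps Chrm5, had a mean of 6.56 against 6.72 and a fold change of -0.16 ± 0.08 (limma adjusted p = 0.264).

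Chrm2, a Gi-coupled receptor that limits acetylcholine release from cholinergic endings, showed the reverse arrangement. It stood at 9.35, 6.80, 7.35, 6.59 and 6.64 ipsilaterally and at 7.67, 7.75, 7.64, 7.31 and 7.91 contralaterally. Ipsilateral replicate 1 was the highest of all 10 arrays, ipsilateral replicate 3 lay within the contralateral range, and ipsilateral replicates 2, 4 and 5 lay below it. The fold change was -0.31 ± 0.46 (limma adjusted p = 0.758) with that array and -0.81 ± 0.17 (limma adjusted p = 0.0186) without it. When replicates 2 and 4 of both sides were left out, it was 0.04. Chrm1, the Gq-coupled muscarinic receptor that dominates in forebrain neurons, averaged 9.45 ± 0.24 against 9.64 ± 0.15, a fold change of -0.20 ± 0.12 (limma adjusted p = 0.378). Chrm4, a Gi-coupled receptor enriched in the striatum, averaged 7.59 ± 0.16 against 7.88 ± 0.30, a fold change of -0.29 ± 0.14 (limma adjusted p = 0.260).

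**Figure D2:**
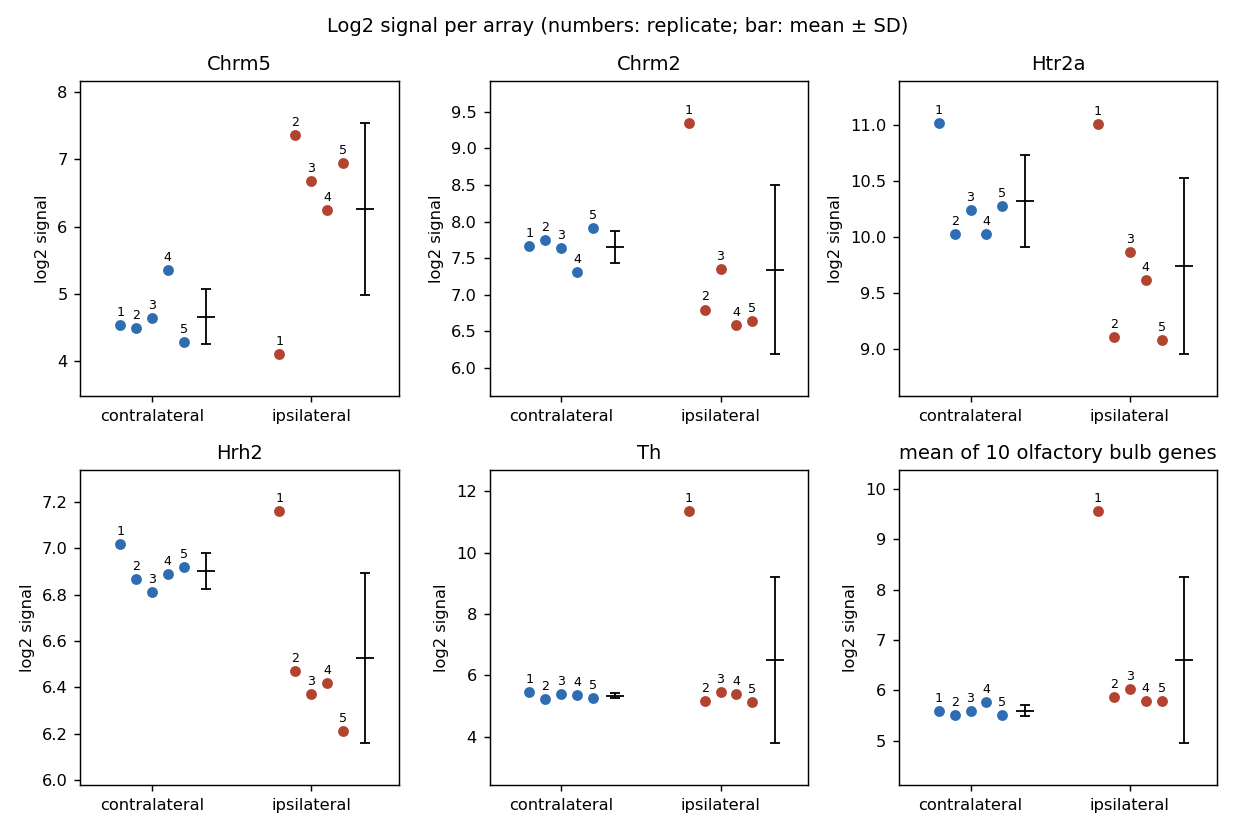
Log2 signal on each array (y axis) for Chrm5, Chrm2, Htr2a, Hrh2, the catecholamine enzyme gene Th and the mean of 10 olfactory bulb genes. The olfactory bulb list was composed after the values were seen. Points are single arrays, numbered by replicate, with the mean ± SD of 5 arrays beside each group; ipsilateral replicate 1 is the lowest ipsilateral point for Chrm5, at 4.10, and the highest for the other 5 panels.

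Nicotinic receptors are cation channels assembled from several subunits, and their 13 subunit genes had a median fold change of 0.02, with 8 positive and 5 negative. Chrnb3, an accessory subunit that joins Chrna6 in receptors of midbrain dopamine neurons, was the one that fell. Its signal was 4.04, 4.01, 3.96, 3.99 and 3.9 ipsilaterally and 4.50, 4.21, 4.22, 4.30 and 4.44 contralaterally. All ipsilateral values were below all contralateral ones, and all 10 values were below the lowest array median of 4.71, so the size of the difference is not settled by so dim a probe set. The mean was 3.98 ± 0.05 against 4.33 ± 0.13 (SD, n = 5 per side), a fold change of -0.35 ± 0.07 with a limma adjusted p of 0.0152, and every fit that left out 1 array called it (0.0174 to 0.0434). It was not called without replicates 2 and 4 of both sides (-0.42, adjusted p = 0.116) or under a fixed replicate block (adjusted p = 0.0566). Its genomic neighbour and partner Chrna6, also below the array medians, had a fold change of -0.24 ± 0.09 (limma adjusted p = 0.162).

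The main nicotinic receptor of the cortex combines Chrna4 with Chrnb2. Chrna4 stood at 8.05, 8.86, 8.55, 8.97 and 9.23 ipsilaterally and at 9.30, 9.18, 9.52, 9.60 and 9.24 contralaterally. Only ipsilateral replicate 5 reached the contralateral range, and ipsilateral replicate 1 was the lowest. Its fold change was -0.64 ± 0.19, with a limma adjusted p of 0.0858, and with the arrays centred on their medians it was -0.71, with an adjusted p of 0.0488. Chrnb2 averaged 8.58 ± 0.13 against 8.56 ± 0.12, a fold change of 0.02 ± 0.08 (limma adjusted p = 0.916). The difference between these fold changes was not tested. Chrna5, an accessory subunit of such receptors, averaged 6.20 ± 0.41 against 6.34 ± 0.24, a fold change of -0.14 ± 0.19 (limma adjusted p = 0.727).

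Chrna7 forms channels of a single subunit kind with high calcium permeability. It was at 8.75, 9.82, 9.44, 9.12 and 9.26 ipsilaterally and at 9.39, 9.20, 8.89, 9.06 and 9.0 contralaterally. The groups overlapped, with ipsilateral replicate 1 lowest and ipsilateral replicate 2 highest of all arrays, and the fold change was 0.17 ± 0.18 (limma adjusted p = 0.637). Chrna10, known from cochlear hair cells, was at 5.56, 4.37, 4.93, 4.68 and 4.18 ipsilaterally and at 4.21, 3.91, 4.15, 4.32 and 4.03 contralaterally. Of the ipsilateral arrays only replicate 5 lay within the contralateral range, and the fold change was 0.62 ± 0.22 (limma adjusted p = 0.138), or 0.42 without ipsilateral replicate 1.

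Chrna3 and Chrnb4 lie next to each other in a cluster with Chrna5 and together form the receptor of autonomic ganglia and the medial habenula. Both were highest on ipsilateral replicate 1, with Chrna3 at 5.55 there against 4.42 to 4.60 on the other ipsilateral arrays, and Chrnb4 at 5.75 against 4.49 to 4.99. Their fold changes were 0.09 ± 0.18 and 0.21 ± 0.21 over all arrays, and -0.11 and 0.01 without that array. Of the other subunits, Chrnb1, a muscle subunit, averaged 4.81 ± 0.16 against 4.67 ± 0.05, a fold change of 0.14 ± 0.08 (limma adjusted p = 0.334). Chrna1, also of muscle, Chrna2 and the hair cell subunit Chrna9 lay below the array medians on both sides, with fold changes of -0.09, 0.03 and 0.01.

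**Figure D3:**
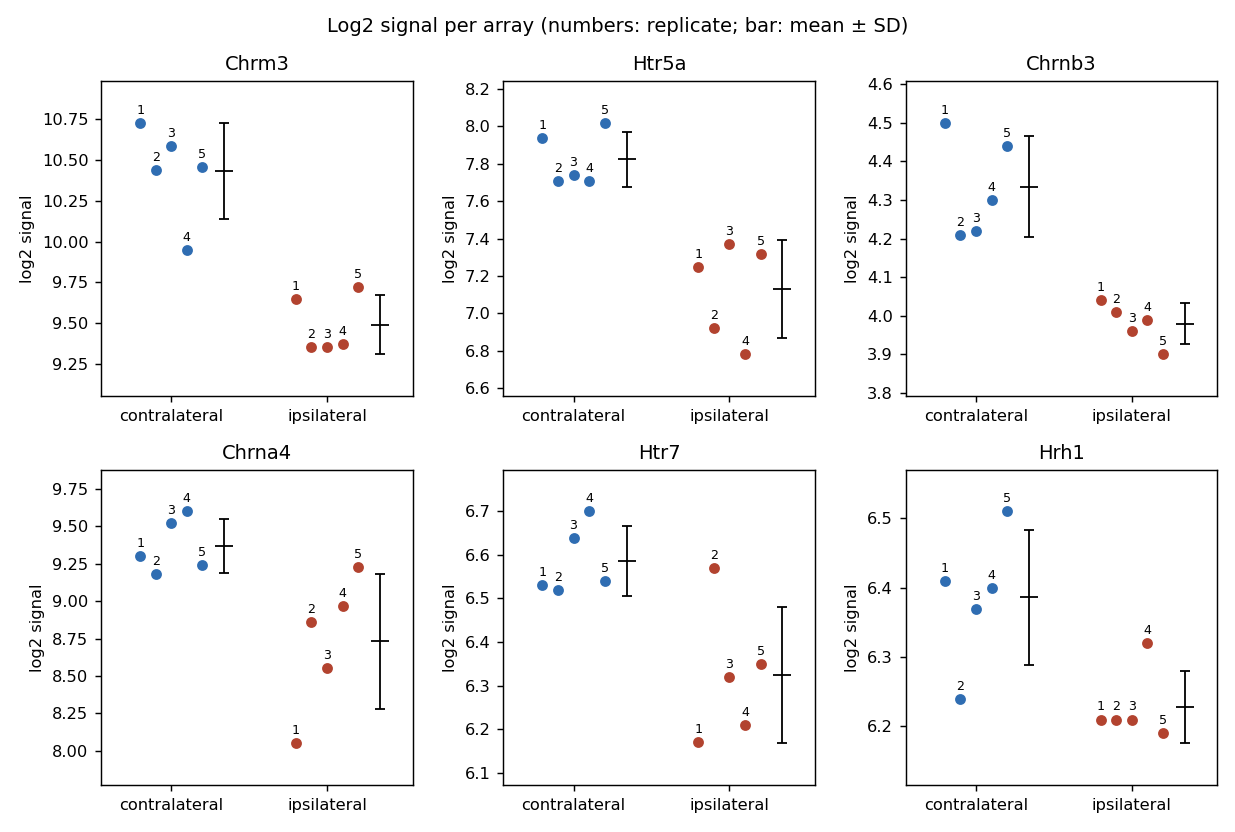
Log2 signal on each array (y axis) for Chrm3, Htr5a and Chrnb3, which fell ipsilaterally, and for Chrna4, Htr7 and Hrh1. With median-centred arrays Chrna4, Htr7 and Hrh1 were called, as were Htr7 and Hrh1 with quantile scaling and Htr7 without ipsilateral replicate 2. Points are single arrays numbered by replicate, with the mean ± SD of 5 arrays beside each group; the groups do not overlap in the upper 3 panels and overlap in the lower 3.

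Of the 14 serotonin receptor genes, Htr5a fell, and the fold changes of the others ran from -0.58 for Htr2a to 0.77 for Htr2c, with a median over all 14 of 0.12. Htr5a encodes a Gi-coupled receptor of the central nervous system. Its signal was 7.25, 6.92, 7.37, 6.78 and 7.32 ipsilaterally and 7.94, 7.71, 7.74, 7.71 and 8.02 contralaterally. The groups did not overlap, and ipsilateral replicates 2 and 4 were the lowest of all arrays. The mean was 7.13 ± 0.26 against 7.82 ± 0.15 (SD, n = 5 per side), a fold change of -0.70 ± 0.12, or 1.62-fold lower, with a limma adjusted p of 0.00929. It was called in each of the 10 fits without 1 array (0.00952 to 0.0328), and when replicates 2 and 4 of both sides were left out the adjusted p was 0.0527. Htr5b, its close relative in rodents, averaged 5.79 ± 0.44 against 5.72 ± 0.20, a fold change of 0.08 ± 0.19 (limma adjusted p = 0.872).

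The Htr2 genes encode the Gq-coupled serotonin receptors. Htr2a, the receptor of deep-layer cortical pyramidal cells through which serotonergic psychedelics act, was at 11.01, 9.11, 9.87, 9.62 and 9.08 ipsilaterally and at 11.02, 10.03, 10.24, 10.03 and 10.28 contralaterally. Replicate 1 was the highest array on each side, and the other 4 ipsilateral values lay below all contralateral ones. The fold change was -0.58 ± 0.35 (limma adjusted p = 0.374) over all arrays and -0.90 ± 0.23 (limma adjusted p = 0.0449) without ipsilateral replicate 1. Htr2c, found in many brain regions and at very high levels in the choroid plexus, was at 6.63, 8.48, 8.86, 7.77 and 7.54 ipsilaterally and at 5.74, 7.96, 7.13, 7.85 and 6.75 contralaterally. Contralateral replicates 2 and 4, in which the choroid plexus genes were high, held the highest contralateral values, whereas the highest ipsilateral value was that of replicate 3, where the choroid plexus genes averaged 6.29. Its fold change was 0.77 ± 0.49 (limma adjusted p = 0.406). It was 1.14 without replicates 2 and 4 of both sides, and between 0.43, without contralateral replicate 1, and 1.08, without ipsilateral replicate 1, with single arrays left out. Htr2b, best known from heart valves, lay below the array medians, with a fold change of 0.17 ± 0.13 (limma adjusted p = 0.528).

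The Gi-coupled Htr1 genes were not called. Htr1a, an autoreceptor of the raphe that is also abundant in the hippocampus, averaged 7.71 ± 0.49 against 7.27 ± 0.24, a fold change of 0.45 ± 0.22 (limma adjusted p = 0.267). Htr1b, which reduces transmitter release from axon endings, averaged 7.05 ± 0.26 against 6.70 ± 0.20, a fold change of 0.35 ± 0.13 (limma adjusted p = 0.165). Htr1d, a related receptor of axon endings, had a fold change of 0.21 ± 0.12, and 0.09 without ipsilateral replicate 3. Htr1f, the target of the migraine drug lasmiditan, averaged 7.68 ± 0.62 against 7.88 ± 0.27, with ipsilateral replicate 1 the highest array at 8.72. Its fold change was -0.21 ± 0.27 (limma adjusted p = 0.719), and -0.47 without that array (adjusted p = 0.107).

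Htr4, Htr6 and Htr7 encode the Gs-coupled serotonin receptors. Htr7 was at 6.17, 6.57, 6.32, 6.21 and 6.35 ipsilaterally and at 6.53, 6.52, 6.64, 6.70 and 6.54 contralaterally. Ipsilateral replicate 2 alone reached the contralateral range, and the fold change was -0.26 ± 0.08 (limma adjusted p = 0.0869). Without that array it was -0.32, with an adjusted p of 0.0296, and with the arrays centred on their medians it was -0.33, with an adjusted p of 0.0272. Htr6 averaged 4.99 ± 0.05 against 5.12 ± 0.09, a fold change of -0.12 ± 0.06 (limma adjusted p = 0.249), which became -0.20 (adjusted p = 0.0474) with that centring. Htr4 averaged 5.73 ± 0.40 against 5.46 ± 0.17, a fold change of 0.27 ± 0.17 (limma adjusted p = 0.423). Of the neighbouring channel subunit genes, Htr3a, a marker of a class of cortical interneurons, averaged 6.67 ± 0.16 against 6.49 ± 0.08, a fold change of 0.18 ± 0.08 (limma adjusted p = 0.234), and Htr3b lay below the array medians with a fold change of -0.04.

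The fold changes of the 5 dopamine receptor genes were positive, from 0.01 to 0.84, and none was called. Drd1, the Gs-coupled receptor of one class of striatal projection neurons, was at 7.35, 7.91, 8.88, 8.33 and 7.92 ipsilaterally and at 7.78, 7.34, 7.62, 7.85 and 7.53 contralaterally. Drd2, the Gi-coupled receptor of the other class and the target of antipsychotic drugs, was at 5.12, 5.03, 6.80, 5.72 and 5.15 ipsilaterally and at 4.80, 4.41, 5.07, 4.97 and 4.39 contralaterally. For both genes ipsilateral replicate 3 was the highest array and replicate 4 the second ipsilaterally, and the groups overlapped. The fold change of Drd1 was 0.45 ± 0.24 (limma adjusted p = 0.306) and that of Drd2 was 0.84 ± 0.32 (limma adjusted p = 0.157). Ipsilateral replicate 3 was also the array with the highest mean of the striatal genes. Without it the fold change of Drd1 was 0.25 (limma adjusted p = 0.448) and that of Drd2 was 0.53 (limma adjusted p = 0.136). Without ipsilateral replicate 1 they were 0.64 and 0.95, and without both arrays 0.43 and 0.57. Drd5, a Gs-coupled relative of Drd1, averaged 6.36 ± 0.32 against 6.21 ± 0.43, and the Gi-coupled Drd3 and Drd4 lay below the array medians with fold changes of 0.01 each. The fold changes of Drd3, Drd4 and Drd5 changed sign with single arrays left out.

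**Figure D4:**
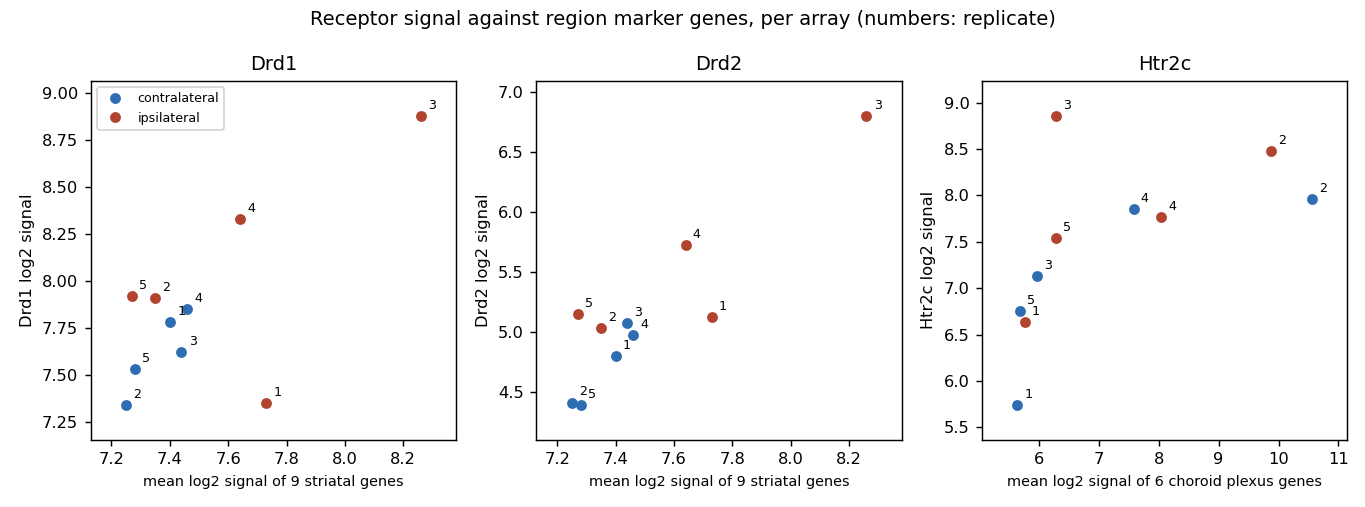
Log2 signal of Drd1 and Drd2 (y axes) against the mean of 9 striatal genes, and of Htr2c against the mean of 6 choroid plexus genes (x axes, log2), with each point 1 array numbered by replicate. Ipsilateral replicate 3 lies at 8.26 on the striatal axis with the highest Drd1 and Drd2 signals; Htr2c is 8.86 on that array, where the choroid plexus mean is 6.29.

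The noradrenaline receptor genes analysed had fold changes of opposite sign and were not called. Adra1b, a Gq-coupled receptor, was at 5.46, 5.06, 5.17, 5.23 and 4.97 ipsilaterally and at 5.65, 5.18, 5.48, 5.36 and 5.46 contralaterally. The groups overlapped, and the fold change was -0.25 ± 0.11 (limma adjusted p = 0.214). Adra2c, a Gi-coupled receptor that limits transmitter release, was at 5.58, 6.21, 6.03, 6.29 and 6.37 ipsilaterally and at 5.82, 5.42, 6.02, 5.96 and 6.0 contralaterally. Ipsilateral replicate 1 lay within the contralateral range and the other 4 ipsilateral arrays above it. Its fold change was 0.25 ± 0.16 (limma adjusted p = 0.412), and 0.38 without ipsilateral replicate 1 (adjusted p = 0.107).

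Among the histamine receptors, the fold changes of Hrh1, Hrh2 and Hrh3 were negative and none was called over all 10 arrays. Hrh2, a Gs-coupled receptor, was at 7.16, 6.47, 6.37, 6.42 and 6.21 ipsilaterally and at 7.02, 6.87, 6.81, 6.89 and 6.92 contralaterally. Ipsilateral replicate 1 was the highest of all arrays, and the other 4 ipsilateral arrays lay below all contralateral ones. The fold change was -0.38 ± 0.15 (limma adjusted p = 0.184) with that array and -0.53 ± 0.07 (limma adjusted p = 0.00259) without it. Hrh1, the Gq-coupled target of sedating antihistamines, was at 6.21, 6.21, 6.21, 6.32 and 6.19 ipsilaterally and at 6.41, 6.24, 6.37, 6.4 and 6.51 contralaterally. Ipsilateral replicate 4 alone entered the contralateral range. Its fold change was -0.16 ± 0.06 (limma adjusted p = 0.161), and with median-centred arrays it was -0.23, with an adjusted p of 0.0341.

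Hrh3, the Gi-coupled autoreceptor of histamine neurons, was at 7.85, 8.07, 8.25, 8.13 and 8.19 ipsilaterally and at 8.12, 7.78, 8.29, 8.25 and 8.25 contralaterally. These groups overlapped throughout, with a fold change of -0.04 ± 0.11 (limma adjusted p = 0.881), or 0.02 without ipsilateral replicate 1. Hrh4, a receptor of immune cells, lay below the array medians with a fold change of 0.01. Adora3, the adenosine receptor gene analysed, is Gi-coupled and known from mast cells and microglia. It was at 4.45, 4.45, 4.47, 4.49 and 4.57 ipsilaterally and at 4.45, 4.42, 4.26, 4.34 and 4.37 contralaterally, below the array medians, with a fold change of 0.12 ± 0.05 (limma adjusted p = 0.246). The highest contralateral value equalled the lowest ipsilateral ones. The mean of 6 of 7 listed microglial genes was 7.55 to 8.75 ipsilaterally and 7.31 to 7.79 contralaterally, and its part in the Adora3 values was not tested.

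Grouped by coupling rather than by transmitter, the receptors showed 1 lower gene each in the Gi (Htr5a, of 14), Gq (Chrm3, of 8) and ion channel (Chrnb3, of 15) classes and 0 in the Gs class (of 6). Htr5b was not assigned to a class. The share that fell over all genes was 4.33%, and the classes were not tested against each other. The median fold change was 0.01 for Gs, 0.01 for Gi, -0.18 for Gq and 0.02 for ion channels. In all, 11 of the 44 genes lay below the lowest array median on both sides, Chrnb3 among them, so these results are least certain.

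Genes that make, clear or relay these transmitters were read from the same fit. Of 73 listed genes 68 were measured, of which 7 fell and 0 rose, with 34 positive and 34 negative fold changes and a median of 0.01. Over all genes, 4.33% fell and 1.22% rose. Of the 7, 5 were among the 32 measured genes of intracellular signalling and 2 among the 7 genes that assist or restrain nicotinic receptors.

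Adcy1, a calcium-stimulated adenylyl cyclase, was at 12.56, 12.49, 12.14, 12.52 and 12.55 ipsilaterally and at 14.22, 14.13, 14.13, 13.61 and 14.15 contralaterally. All ipsilateral arrays were lower by more than a full log2 unit, with a fold change of -1.60 ± 0.13 (limma adjusted p = 0.000317). Rgs4, which shortens Gi and Gq signalling, was at 14.48, 13.76, 14.11, 13.63 and 13.00 ipsilaterally and at 16.13, 15.48, 15.47, 15.24 and 15.79 contralaterally, again without overlap. Its fold change was -1.83 ± 0.26 (limma adjusted p = 0.00305). Plcb1, the phospholipase C activated by Gq, averaged 13.05 ± 0.27 against 13.74 ± 0.11, a fold change of -0.69 ± 0.12 (limma adjusted p = 0.00899).

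The related phospholipase Plcb4 averaged 8.74 ± 0.71 against 10.13 ± 0.24, a fold change of -1.39 ± 0.29 (limma adjusted p = 0.0211). Ipsilateral replicate 1 lay within its contralateral range at 9.90, and 6 of the 10 fits without 1 array called it, with adjusted p up to 0.0632. Adcy9, another adenylyl cyclase, averaged 9.39 ± 0.18 against 9.83 ± 0.10, a fold change of -0.45 ± 0.09 (limma adjusted p = 0.0161, up to 0.0518 without 1 array). The genes of the G protein alpha subunits Gnaq, Gna11 and Gnao1 had fold changes of -0.08, -0.03 and -0.11 and were not called. Gnai2 (0.52 ± 0.18), Gnal (0.26), Gnai3 (0.17), Gnai1 (-0.19) and Gnas (0.03) were not called either, and Gna14 lay below the array medians. Without ipsilateral replicate 1 the fold change of Gnai2 was 0.62 (limma adjusted p = 0.0478).

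Lynx1, a membrane-anchored protein that dampens nicotinic receptors and limits plasticity in adult cortex, was at 10.71, 10.85, 10.71, 10.40 and 10.42 ipsilaterally and at 11.85, 11.78, 11.63, 10.87 and 11.97 contralaterally. The groups did not overlap, although contralateral replicate 4 was only just above ipsilateral replicate 2, and the fold change was -1.0 ± 0.19 (limma adjusted p = 0.0131). Lypd6b, of the same protein family, averaged 6.07 ± 0.15 against 6.55 ± 0.16, a fold change of -0.48 ± 0.09 (limma adjusted p = 0.0155). Tmem35a, a chaperone of nicotinic receptors, and Lypd1 had fold changes of 0.55 ± 0.15 (limma adjusted p = 0.0545) and 1.08 ± 0.51 (limma adjusted p = 0.256).

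**Figure D5:**
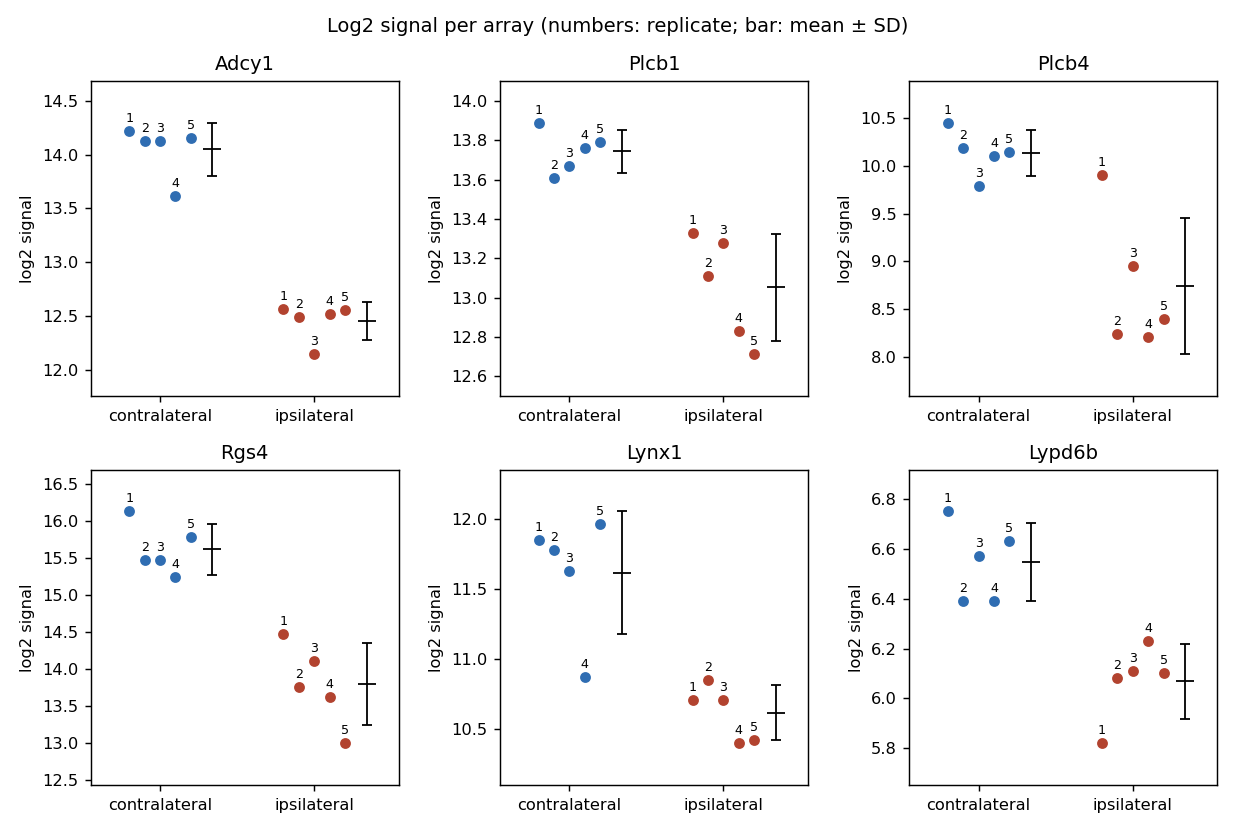
Log2 signal on each array (y axis) for 6 of the 7 signalling and accessory genes that fell ipsilaterally. Points are single arrays numbered by replicate, with the mean ± SD of 5 arrays beside each group; the groups overlap for Plcb4, where ipsilateral replicate 1 is at 9.90, and are separate in the other 5 panels.

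In each list of transmitter metabolism the gene with the strongest test was not called. Hnmt, which inactivates histamine, averaged below its contralateral level without overlap, with a fold change of -0.28 ± 0.07 (limma adjusted p = 0.0517). Slc29a4, a low-affinity monoamine transporter, had a fold change of 1.08 ± 0.32 (limma adjusted p = 0.0803). Ddc, the decarboxylase shared by dopamine and serotonin synthesis, had a fold change of 0.22 ± 0.08, Tph2, the neuronal serotonin enzyme, of -0.17 ± 0.08, and Hdc, the histamine enzyme, of 0.17 ± 0.13. Slc5a7, the choline transporter of cholinergic endings, had a fold change of 0.37 ± 0.24, and of 0.12 without ipsilateral replicate 3, where it was 6.36 against 4.96 to 5.38 on the other ipsilateral arrays. The adenosine transporter gene Slc29a1 had a fold change of 0.15 ± 0.06, with a limma adjusted p of 0.150 over all arrays and 0.0456 without ipsilateral replicate 1. Th, the first enzyme of catecholamine synthesis, was 11.34 on ipsilateral replicate 1 and 5.14 to 5.45 on the other 9 arrays, and its fold change was 1.16 ± 1.05 with that array and -0.05 without it.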

How the data were processed

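RNA from 5 ipsilateral and 5 contralateral brain samples was measured on 10 Affymetrix whole-transcript arrays. The deposited log2 signals came, per the submitters' processing notes, from the authors' use of Transcriptome Analysis Console 4.0. How they were normalized and summarized, and on which genome build, is not given in the sources used here. Values ran from 1.97 to 19.93, and the log2 scale was inferred from that range. Of 65956 rows, the annotation used here named 1 gene for 30604, several for 2146 and none for 33206. Rows with 1 gene were kept, 827 symbols were updated from RefSeq's gene table (GRCm38.p6), and the brightest row per gene gave 30142 genes. Each receptor gene had 1 row.

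Ipsilateral minus contralateral was fitted on all genes with lmFit and eBayes in limma 3.58.1 (R 4.3.3, statmod 1.5.0), without covariates, and called two-sided at a Benjamini-Hochberg adjusted p under 0.05. Tested on simulated data for this comparison, with 30142 genes, the fit recovered 60.3% of genes given a log2 change of 0.5, 87.7% at a change of 1 and 95.4% at a change of 2. It also called 8 genes given no change. The simulated noise was normal and independent between genes and arrays, without deviations shared by many genes of an array. These rates hold for that setting only. The number of arrays limits the precision. Named in every array were called or non-overlapping receptor genes and, per transmitter, the brightest gene and the one with the strongest test; Chrm5, Chrm2, Hrh2, Htr7, Chrna4, Chrna10 and Htr2c were added after their values were seen, and Htr6, Chrna3 and Chrnb4, also chosen then, are given by means or ranges. Pathway genes were named where called or strongest in their list, and Lypd1, Tmem35a and the genes of G protein alpha subunits after their values were seen. The members and lists were chosen with earlier results of these data known; the olfactory bulb list was composed after the values were seen, and shares Th and Calb2 with other lists. The striatal list shares Ppp1r1b, Rgs9, Adcy5 and Pde10a with the signalling list. Alternatives were array centring, quantile scaling, array weights, trended and robust variance, a fixed or random replicate block, filters on dim genes, other row choices, a threshold of 0.01, arrays left out and, added after seeing the data, the omission of ipsilateral replicates 1 and 3.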

Additional observations from a re-analysis of the deposited data

Results flagged for a closer look

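Several receptor genes had 1 array far from the other 4 of its side, by more than the 95% critical value of Dixon's test. Chance gives this in about 1 of 20 groups, and 8 of the 88 receptor groups showed it. Ipsilateral replicate 1 accounted for 3 of the 8: Chrm2 was 9.35 there against 6.59 to 7.35 on the other ipsilateral arrays, Chrna3 was 5.55 against 4.42 to 4.60, and Hrh2 was 7.16 against 6.21 to 6.47. Htr1d stood at 5.44 on ipsilateral replicate 3, against 4.80 to 4.91. Hrh1 was 6.32 on ipsilateral replicate 4, against 6.19 to 6.21, and Htr6 was 4.90 on ipsilateral replicate 5, against 5.00 to 5.04. On the contralateral side Htr2a was 11.02 in replicate 1, against 10.03 to 10.28, and Chrna1 was 4.70 in replicate 5, against 4.46 to 4.50.

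Of the pathway genes named, Th was 11.34 on ipsilateral replicate 1, against 5.14 to 5.45 on the other ipsilateral arrays. Adcy1 was 12.14 on ipsilateral replicate 3, against 12.49 to 12.56, and 13.61 on contralateral replicate 4, against 14.13 to 14.22.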

How the results depend on the processing

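With 10 arrays and unknown normalization, small differences of dim receptor genes are the least certain: 37 of the 44 genes remained with the dimmest 25% of genes left out and 24 with the dimmest 50%. Receptor genes lower ipsilaterally (3) numbered 7 with median-centred arrays, 5 with quantile scaling, 1 without the arrays numbered 2 and 4, 6 without ipsilateral replicates 1 and 3, and 3 to 6 with 1 array left out; higher ones (0) numbered 1 with array weights (Chrm5), 1 without ipsilateral replicates 1 and 3, and 0 to 1 with 1 array left out. Pathway genes lower (7) numbered 11 with centring, 3 at a threshold of 0.01, 2 without the arrays numbered 2 and 4 and 12 without ipsilateral replicates 1 and 3; higher ones (0) numbered 1 with quantile scaling, 2 with array weights, 1 with either filter on dim genes, 1 without ipsilateral replicates 1 and 3, and 0 to 2 with 1 array left out. Over all genes, the higher calls (369) were 232 with centring, 656 with array weights, 198 with every row tested, 47 at 0.01, 77 without the arrays numbered 2 and 4, 1048 without ipsilateral replicates 1 and 3, and 111 to 760 with 1 array left out. The lower calls (1305) were 2623 with centring, 537 at 0.01, 289 without the arrays numbered 2 and 4, and 740 to 1607 with 1 array left out. Over all genes, same-numbered arrays did not deviate together (correlations of -0.399 to 0.259, with 1 of 5 best with its own number). Choroid plexus genes were nevertheless high in replicates 2 and 4 of both sides. These values do not settle whether the numbers mark shared animals, and the main fit did not read them as pairs. A fixed replicate block gave 2 lower receptor genes (Chrnb3 had an adjusted p of 0.0566), and 177 higher and 769 lower genes in all. Among the 20 receptor genes followed through every alternative, the fold change changed sign for Chrm2 without the arrays numbered 2 and 4 (0.04) and for Hrh3 without ipsilateral replicate 1 (0.02, with a range of -0.13 to 0.02 over single arrays left out). Of the other 24 receptor genes, 11 changed sign with single arrays left out, all with fold changes of at most 0.15 in size over 10 arrays. Where no array is named, the cause was not tested. Of 452 values of those 20 genes under these alternatives, 430 kept their direction and side of the threshold. Only 3 of the 20 were called over all 10 arrays, so the others could change side only by gaining a call. The threshold of 0.01 reused the same fit, and averaging rows could not alter the fold change of genes with 1 row. Much of this count was therefore fixed in advance.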
